A study of Mus musculus with 26 samples.

Results

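The chaperonin CCT, also called TRiC, is a barrel of stacked rings in which each ring holds 8 different but related proteins, encoded in the mouse by Tcp1, Cct2, Cct3, Cct4, Cct5, Cct6a, Cct7 and Cct8. The genes were taken by symbol as the full set of subunits of this complex, and the question was whether their RNAs and ribosome footprints move together under stress. All 8 were found among the 20430 genes of the RNA tables and the 19941 genes of the footprint tables, and all 8 passed the filter on low counts in every model, so none was left out. The study exposed NIH3T3, a widely used mouse line established from embryonic fibroblasts, to heat, oxidative or osmotic stress and sequenced polyA-selected RNA and the mRNA fragments that ribosomes protect (footprints). It comprised 26 libraries in 13 groups of 2 replicates, 16 of RNA in 8 groups and 10 of footprints in 5 groups.

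The heat groups were a control for heat, 44 °C for 2 h and 42 °C for 8 h, with RNA only among the labelled samples. The other groups were a control shared by H2O2 and KCl, H2O2 for 2 h or 7 h (oxidative stress) and KCl for 2 h or 7 h (osmotic stress), each with RNA and footprints. Concentrations of H2O2 and KCl and the temperature and duration of the controls are not given in the labels. Temperature and time differ together between the heat groups and cannot be told apart. The labels give replicate numbers without saying whether replicates were separate cultures, so that p-values measure the spread between these libraries, which may be technical. NIH3T3 is 1 cell line, and no primary cells were measured.

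CCT encloses a newly made protein in its cavity and folds it in a cycle driven by ATP. Actins and tubulins are its best known and most abundant substrates, and proteins with a WD40 beta-propeller, such as the G protein beta subunits, form another class. The co-chaperone prefoldin hands unfolded actin and tubulin to CCT, and phosducin-like proteins assist or modulate folding inside it. Each ring needs 1 copy of every subunit, in the order Tcp1, Cct3, Cct6a, Cct8, Cct7, Cct5, Cct2 and Cct4 around the ring, and Cct2, Cct4 and Cct5 lie on the side that binds ATP most tightly. CCT is also known to bind and restrain HSF1, the transcription factor of the heat shock response, and HSF1 is known to act on genes of CCT subunits.

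The cells' identity and the libraries were checked first. All 7 fibroblast markers examined, among them Col1a1 and Vim, had medians over the RNA libraries of 197 to 3227 TPM (TPM, transcripts scaled to a fixed total per library, corrects for transcript length). Markers of epithelium, leukocytes, endothelium and skeletal muscle reached at most 5.30 TPM in any library, with the exception of the macrophage-associated gene Cd68 at 5.32 to 44.7 TPM, while the defining leukocyte genes Ptprc and Adgre1 reached at most 0.05 and 0 TPM. RNA libraries held 24441877 to 45244430 expected counts and footprint libraries 1460751 to 5168537. The least deep footprint library was replicate 1 at 2 h of H2O2. Replicates correlated across genes with r of 0.997 to 0.998 in RNA and 0.954 to 0.979 in footprints, and none was a repeat of another within counting noise.

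The 8 genes lie on 8 different chromosomes, so they share no promoter or neighbourhood. By the RefSeq annotation of GRCm38.p6, the assembly of the mm10 build named in the submitters' processing notes, Tcp1 lies at chr17:12916329-12925067, Cct2 at chr10:117050997-117063852, Cct3 at chr3:88297135-88321766 and Cct4 at chr11:22990593-23003336. Cct5 lies at chr15:31590800-31601846, Cct6a at chr5:129787356-129846443, Cct7 at chr6:85451505-85468477 and Cct8 at chr16:87483325-87495869. Of these, 4 overlap a protein-coding neighbour at an end: Tcp1 overlaps Mrpl18 by 1459 bases and Acat3 by 1238 bases, Cct7 overlaps Pradc1 by 483, Cct8 overlaps Usp16 by 191 and Cct6a overlaps Psph by 88. Whether counting used strand is not stated in any source at hand, so reads in these overlaps may be assigned to either gene.

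The RefSeq promoter table held 7 of the 8 genes in 9 windows, from which the 250 bases before each start were taken; Cct4 had no entry. Cct3, Cct5 and Cct8 are shown because they hold different motifs beside the GC box. They also differed at 7 h of KCl, described below, where Cct5 rose, Cct3 fell and Cct8 passed in neither direction. Whether the motifs are related to these changes was not tested. Capitals mark matches on either strand to 6 motifs, which are paired heat shock element units facing each other (GAANNTTC) or facing apart (TTCNNGAA), the CCAAT box (CCAAT), the GC box (GGGCGG), an ETS site (CCGGAAGT) and the cAMP response element (TGACGTCA).
Cct3 (chr3:88296885-88297134, plus strand): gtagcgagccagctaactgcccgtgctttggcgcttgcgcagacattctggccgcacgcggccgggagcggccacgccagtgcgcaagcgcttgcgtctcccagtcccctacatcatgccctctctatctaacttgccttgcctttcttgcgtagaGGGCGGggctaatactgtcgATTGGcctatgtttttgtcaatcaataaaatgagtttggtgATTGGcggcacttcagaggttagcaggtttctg
Cct5 (chr15:31601847-31602096, minus strand): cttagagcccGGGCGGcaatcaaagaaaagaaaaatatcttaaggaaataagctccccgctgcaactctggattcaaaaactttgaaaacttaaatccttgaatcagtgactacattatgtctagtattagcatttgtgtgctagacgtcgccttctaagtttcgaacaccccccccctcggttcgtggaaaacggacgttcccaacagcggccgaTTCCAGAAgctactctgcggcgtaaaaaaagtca
Cct8 (chr16:87495870-87496119, minus strand): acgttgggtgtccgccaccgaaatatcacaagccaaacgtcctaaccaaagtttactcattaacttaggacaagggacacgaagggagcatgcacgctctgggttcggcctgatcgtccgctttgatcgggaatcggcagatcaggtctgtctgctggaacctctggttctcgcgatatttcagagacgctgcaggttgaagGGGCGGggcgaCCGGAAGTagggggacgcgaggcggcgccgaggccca
The GC box was in 8 of 9 windows, with at least 1 window in 7 of 7 genes, against 32.7% of all 32807 RefSeq promoter windows of this length. The CCAAT box was in 4 of 9 windows (of Tcp1, Cct3, Cct6a and Cct7), against 33.8%. Matches were not adjusted for base content, and G or C made up 45.2% to 66.8% of the 9 windows, against a median of 52.4% over all. In the windows printed, Cct3 has CCAAT boxes 74 and 33 bases before its start, Cct5 has TTCNNGAA 34 bases before its start and Cct8 has the ETS site 37 bases before its start. TTCNNGAA and the ETS site were each in 1 of 9 windows, against 7.16% and 2.88% of all windows. The window before a second start of Cct5 held no match to any of the motifs. The GAANNTTC form, in 6.69% of all windows, was found in the set once, before a second start of Cct2, and the cAMP response element, in 1.55%, in no window of the 7 genes. These are matches of letters, and binding was not measured.

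In unstressed cells all 8 RNAs were abundant, and they were not equal. In the control of the H2O2/KCl experiment the mean TPM was 603 for Cct2, 537 for Cct5, 516 for Cct3, 505 for Tcp1, 422 for Cct8, 421 for Cct6a, 345 for Cct7 and 280 for Cct4. The replicates of neighbours in this order overlapped for Cct3 and Tcp1 (525 and 507 against 501 and 509 TPM) and for Cct8 and Cct6a (417 and 427 against 421 and 421 TPM), and did not overlap for the other neighbours. Cct2, the beta subunit, also known as a receptor for autophagy of protein aggregates, was thus the most abundant and Cct4, the delta subunit, which contacts actin, the least, with a ratio of 2.11 and 2.20 between them in the 2 control libraries. The heat control gave Cct2 as the highest (492 and 496 TPM) and Cct4 as the lowest (250 and 241 TPM) as well. Summed over the 8 genes, the RNA level was 2814 to 4036 TPM in the 16 libraries, 0.281% to 0.404% of all transcripts.

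In heat, all 8 subunits rose at 42 °C for 8 h, where 31.7% of all genes did, and 3 of 8 rose at 44 °C for 2 h, a share near the 35.4% of all genes that did. At 44 °C the levels of Cct4, Cct6a and Cct8 rose by 0.21 to 0.24 on the log2 scale, while the other 5 lay between -0.05 and 0.04. At 42 °C the rise ran from 0.37 for Tcp1 to 0.67 for Cct6a, or 1.29-fold to 1.60-fold. Levels are given below as CPM, counts scaled to the library total after TMM normalization, which are comparable within an experiment. Log2 fold changes are stress over control from the edgeR quasi-likelihood test, and a gene passed where its p after Benjamini-Hochberg adjustment over all genes tested was under 0.05.

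**Figure D1:**
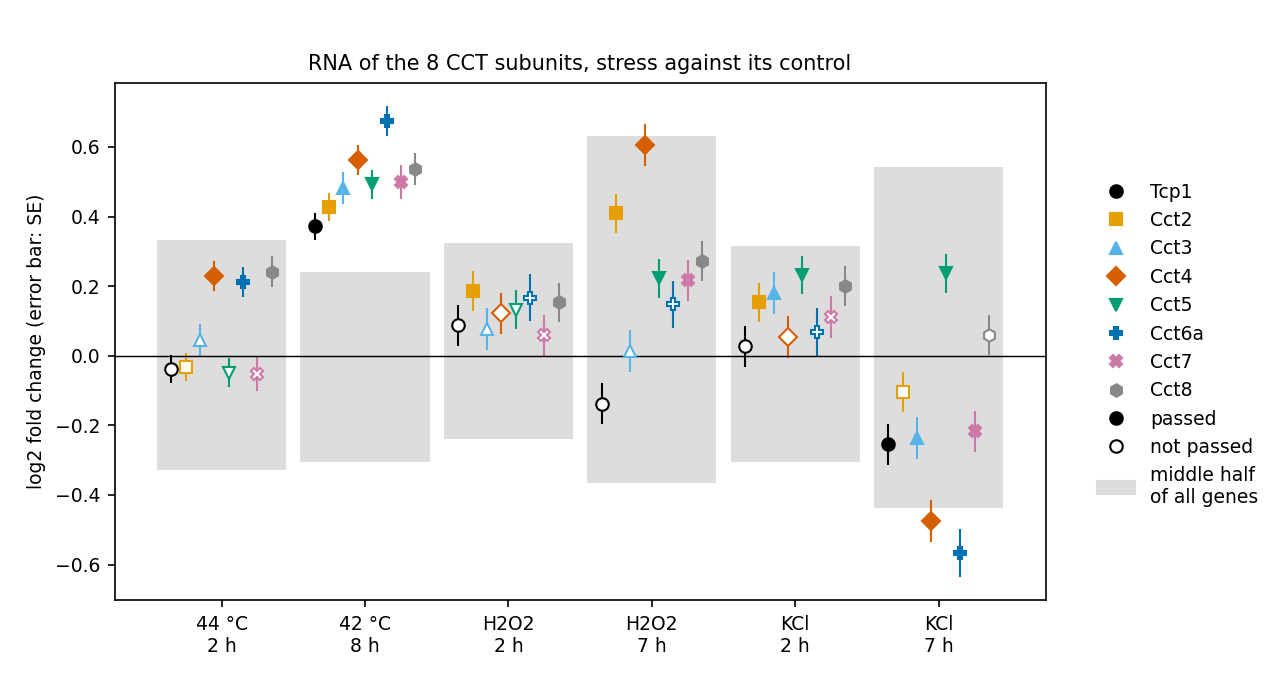
Log2 fold change of RNA (y axis) of each of the 8 subunits in 6 stress groups (x axis) against the control of the experiment, with standard errors, for groups of 2 libraries. Filled symbols passed the edgeR threshold, open symbols did not, and grey boxes span the lower to the upper quartile of all genes tested. All 8 subunits lie above the grey box at 42 °C, and the symbols spread widest at 7 h of H2O2 and of KCl.

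Cct6a, the zeta subunit, whose relative Cct6b is made mainly in testis, measured 296 and 296 CPM in the heat control, 345 and 341 CPM at 44 °C and 491 and 453 CPM at 42 °C. The libraries of the 3 groups did not overlap, and the order was control, 44 °C, 42 °C. Its log2 fold change was 0.21 (SE 0.043, adjusted p 0.00054, edgeR, Benjamini-Hochberg) at 44 °C and 0.67 (SE 0.043, adjusted p 1.3e-08) at 42 °C.

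Cct4 measured 216 and 208 CPM in the control, 253 and 244 CPM at 44 °C and 321 and 306 CPM at 42 °C. Cct8, the theta subunit, whose amount can limit assembly of CCT in some cells, measured 322 and 317, 378 and 378, and 484 and 443 CPM in the same order. Both genes thus stepped up from group to group without overlap. Their log2 fold changes at 44 °C were 0.23 (SE 0.043) and 0.24 (SE 0.045), with adjusted p of 0.00025 and 0.00023 (edgeR, Benjamini-Hochberg).

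The other 5 genes showed no such step at 44 °C. Tcp1, the alpha subunit for which the family is named, measured 437 and 429 CPM in the control, 428 and 416 CPM at 44 °C and 572 and 548 CPM at 42 °C. Cct5, the epsilon subunit, measured 341 and 333, 327 and 324, and 489 and 459 CPM. Cct2, Cct3 and Cct7 likewise had log2 fold changes of -0.05 to 0.04 at 44 °C, and at 42 °C every library of each of the 5 was above every control and every 44 °C library.

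Of the 8 subunits, 3 passed as higher at 44 °C, where 35.4% of 12747 genes passed in that direction, and 8 passed as higher at 42 °C, where 31.7% did. The median log2 fold change of the 8 was 0.006 at 44 °C and 0.50 at 42 °C, against -0.0003 and -0.014 for all genes. In these bulk libraries fewer cells that express a gene and less RNA per cell cannot be told apart. At 42 °C the 8 values lay at percentiles 84.8 to 94.0 of all genes, with adjusted p of 1.3e-08 to 2.0e-06 (edgeR, Benjamini-Hochberg) and standard errors of 0.040 to 0.048. On log2(TPM + 1), a scale without the TMM correction, the median of all genes at 42 °C shifted to -0.16 and the subunits lay at 0.18 to 0.48, all 8 still passing (limma). At 44 °C that scale put all 8 above 0, at 0.01 to 0.30, and 4 passed, Cct3 being the added one. The median of all genes shifted to 0.05 there, against 0.07 for the subunits.

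The direct comparison of 42 °C for 8 h with 44 °C for 2 h passed for 8 of 8 subunits, all higher at 42 °C, where 37.9% of genes were. Log2 differences ran from 0.30 for Cct8 and 0.33 for Cct4 to 0.54 for Cct5 and 0.55 for Cct7. The subunits that had risen at 44 °C were not uniformly those with the smallest step, since Cct6a differed by 0.46. On log2(TPM + 1), where the median of all genes was -0.20, Cct4 (0.08) and Cct8 (0.04) no longer passed.

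**Figure D2:**
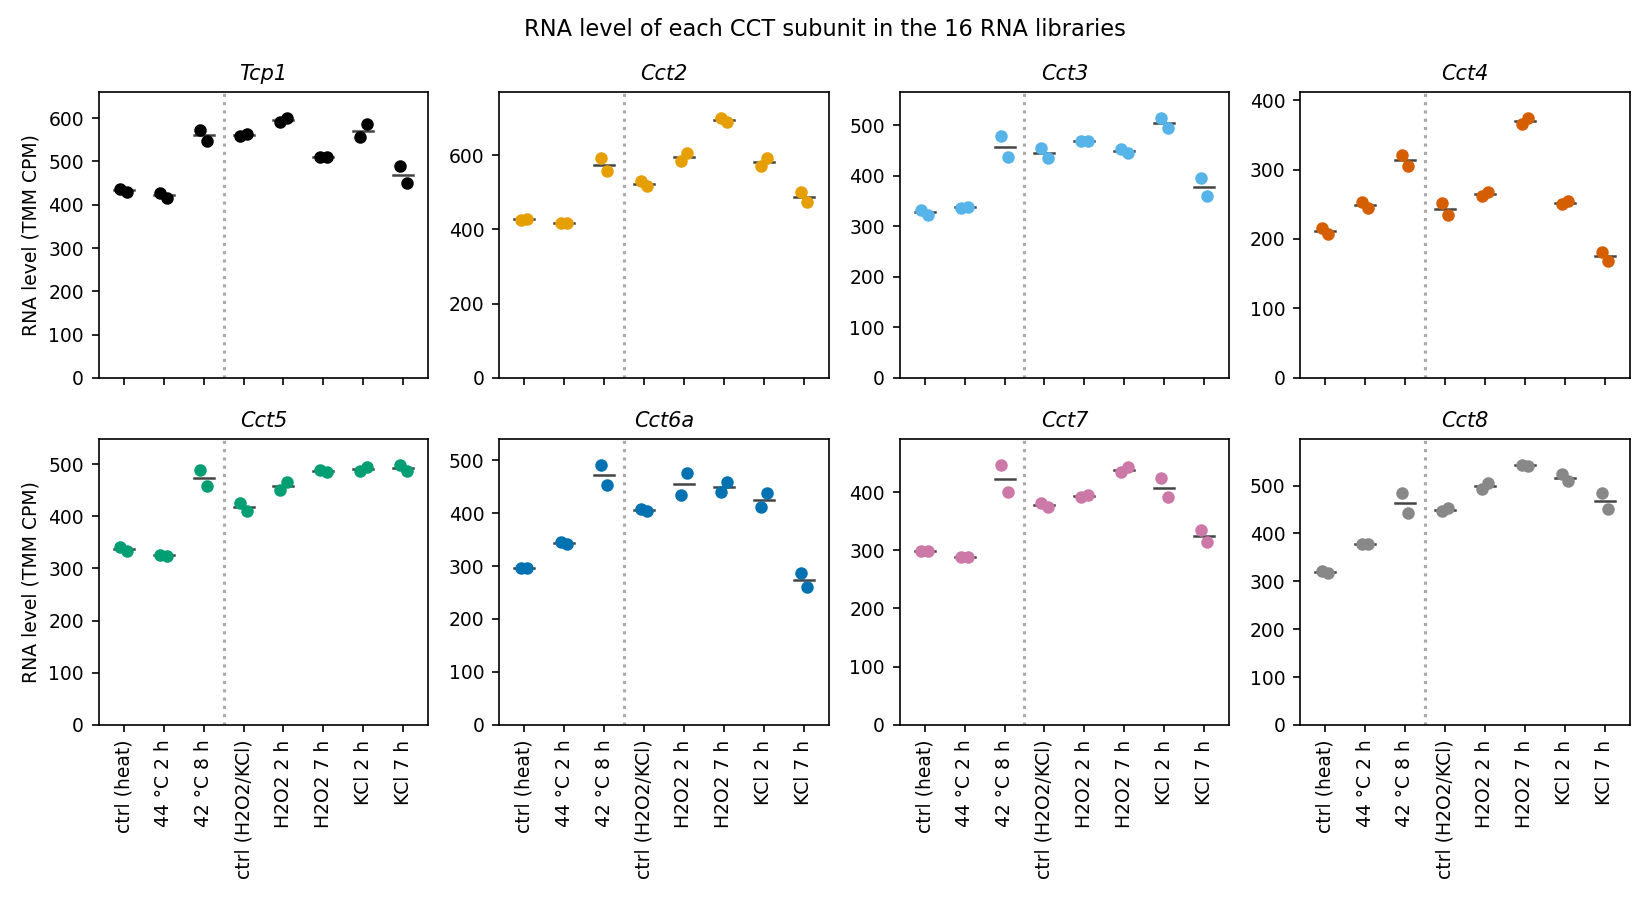
RNA level of each subunit in CPM after TMM normalization (y axis, from 0) in the 8 RNA groups (x axis). Points are the 2 libraries of a group, short lines their mean, and the dotted line separates the heat experiment from the H2O2/KCl experiment, which were normalized separately. Cct4 runs from 169 CPM at 7 h of KCl to 374 CPM at 7 h of H2O2, while Cct5 stays between 486 and 498 CPM in those groups.

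At 2 h of H2O2 or KCl the subunits lay slightly above the control. All 8 fold changes were above 0 in both treatments, with a median of 0.13 in each on the log2 scale, and none exceeded 0.23. Both treatments share their control libraries, so these signs are not independent. The values lay at percentiles 56.2 to 66.9 of all genes in H2O2 and 53.0 to 70.5 in KCl. At 2 h of H2O2, Cct2 rose by 0.19 (SE 0.057, adjusted p 0.013) and Cct8 by 0.15 (SE 0.057, adjusted p 0.036, edgeR, Benjamini-Hochberg). That was 2 of 8 subunits, a share near the 27.3% of 13256 genes called higher. Cct2 measured 530 and 516 CPM in the control and 584 and 606 CPM at 2 h of H2O2, without overlap. Cct6a, at 434 and 476 CPM against 408 and 403 CPM, had a log2 fold change of 0.17 with an adjusted p of 0.0502 that missed the threshold. These calls were near the limit of the test: without either H2O2 library or without control replicate 2 none of the 8 passed, without control replicate 1 only Cct2 did, and DESeq2 called 4.

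At 2 h of KCl, 4 of 8 subunits passed as higher, where 27.2% of genes did. They were Cct5 (0.23, SE 0.055), Cct8 (0.20, SE 0.057), Cct3 (0.18, SE 0.061) and Cct2 (0.15, SE 0.057), with adjusted p of 0.0026, 0.0086, 0.021 and 0.035 (edgeR, Benjamini-Hochberg). Cct5 measured 426 and 410 CPM in the control and 487 and 494 CPM at 2 h of KCl, well apart. The count fell to 2 without control replicate 1 (Cct3 and Cct5) or control replicate 2 (Cct5 and Cct8). On log2(TPM + 1), where the median of all genes was -0.07, 3 subunits turned to below 0 and only Cct5 still passed. Between H2O2 and KCl at 2 h, 0 of 8 subunits differed (51.3% of all genes did), with log2 differences of -0.10 to 0.10. None had an unadjusted p under 0.05 in the edgeR test and DESeq2 called none, while limma on log2(TPM + 1) called 3, Tcp1, Cct4 and Cct6a, each higher in H2O2.

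By 7 h the subunits had diverged. After 7 h of H2O2 Cct4 and Cct2 had risen most, and after 7 h of KCl Cct6a and Cct4 had fallen most while Cct5 had risen. The distance between the highest and the lowest of the 8 log2 fold changes was 0.74 after H2O2 for 7 h and 0.80 after KCl for 7 h. It was 0.13 and 0.21 at 2 h of H2O2 and KCl, 0.29 at 44 °C and 0.30 at 42 °C. Standard errors in RNA were at most 0.069. All genes spread more at 7 h too: the distance between their quartiles was 1.00 in H2O2 and 0.98 in KCl. At 2 h it was 0.57 and 0.62, at 44 °C 0.66 and at 42 °C 0.55. The H2O2 and KCl groups share their control libraries, so their values are set side by side and the direct comparison is given after them.

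Cct4 measured 251 and 235 CPM in the control, 262 and 267 CPM after 2 h of H2O2, 366 and 374 CPM after 7 h, 250 and 255 CPM after 2 h of KCl and 181 and 169 CPM after 7 h. The 7 h groups thus lay on opposite sides of the control and of the 2 h groups, with no overlap. The log2 fold change was 0.61 (SE 0.060, adjusted p 5.0e-07) after H2O2 for 7 h and -0.47 (SE 0.061, adjusted p 7.9e-06) after KCl for 7 h (edgeR, Benjamini-Hochberg).

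Cct6a measured 408 and 403 CPM in the control, 439 and 459 CPM after H2O2 for 7 h and 287 and 260 CPM after KCl for 7 h. It was the lowest of the 8 fold changes in KCl, at -0.57 (SE 0.068, adjusted p 4.5e-06, edgeR, Benjamini-Hochberg), and did not pass in H2O2 (0.15, adjusted p 0.066).

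Cct5 went the other way in KCl, at 426 and 410 CPM in the control and 498 and 486 CPM at 7 h of KCl, a log2 fold change of 0.24 (SE 0.055, adjusted p 0.0015, edgeR, Benjamini-Hochberg). Its level at 7 h was that reached at 2 h, with a log2 difference between the times of 0.00. With H2O2 for 7 h it measured 489 and 486 CPM, a log2 fold change of 0.22 (adjusted p 0.0024). Cct5 was thus above the control libraries in all 4 groups of the experiment, although at 2 h of H2O2 its fold change of 0.13 missed the threshold (adjusted p 0.055).

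Tcp1 measured 559 and 562 CPM in the control, 509 and 510 CPM after H2O2 for 7 h and 489 and 450 CPM after KCl for 7 h. Both 7 h groups lay below the control without overlap. The fall passed in KCl (-0.25, SE 0.059, adjusted p 0.0015, edgeR, Benjamini-Hochberg), and in H2O2 the value of -0.14 (SE 0.059) had an adjusted p of 0.0505 that did not pass. With DESeq2, with its size factors in edgeR, without the filter on low counts, with only the groups compared or on log2(TPM + 1), Tcp1 did pass as lower at 7 h of H2O2, at -0.16 to -0.21.

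Cct2 rose at 7 h of H2O2 to 700 and 688 CPM from 530 and 516 CPM in the control, a log2 fold change of 0.41 (SE 0.057, adjusted p 1.7e-05, edgeR, Benjamini-Hochberg), and measured 500 and 474 CPM at 7 h of KCl (-0.10, adjusted p 0.12). Cct8, at 446 and 452 CPM in the control, rose to 543 and 542 CPM in H2O2 and measured 485 and 451 CPM in KCl, where its libraries overlapped the control. Cct7 and Cct3 fell in KCl by 0.22 and 0.24 on the log2 scale. In H2O2 Cct7 rose by 0.22 and Cct3 stood at 0.01 (adjusted p 0.86).

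In all, 5 of 8 subunits passed as higher at 7 h of H2O2, where 39.4% of genes did (31.1% lower), namely Cct2, Cct4, Cct5, Cct7 and Cct8. In KCl at 7 h 1 passed as higher and 5 as lower, where 37.2% and 31.6% of genes did. The medians of the 8 were 0.22 and -0.23, against 0.075 and 0.039 for all genes. Without H2O2 replicate 1, Cct5 (0.14) and Cct7 (0.15) no longer passed at 7 h of H2O2 and Tcp1 (-0.22) did. Without KCl replicate 2, Cct7 (-0.18) no longer passed at 7 h of KCl.

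Direct comparison of the 7 h groups gave 6 of 8 subunits higher in H2O2 than in KCl, against 41.0% of genes. Cct4 differed most, by 1.08 (SE 0.061, adjusted p 7.2e-10, edgeR, Benjamini-Hochberg), a level 2.11-fold higher, followed by Cct6a (0.71), Cct2 (0.51), Cct7 (0.43), Cct3 (0.25) and Cct8 (0.21). Tcp1 (0.12, adjusted p 0.084) and Cct5 (-0.01, adjusted p 0.82, SE 0.055) did not pass. Without KCl replicate 2, Cct8 (0.16) did not pass, and without KCl replicate 1 Tcp1 (0.18) did.

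Between 2 h and 7 h of H2O2, 3 of 8 subunits were higher at 7 h, where 37.3% of genes were, and 1 was lower, where 36.1% were. They were Cct4 (0.48), Cct2 (0.22) and Cct7 (0.16) on the higher side and Tcp1 (-0.22) on the lower. Cct7 lost its call when any of the 4 libraries was left out, and without replicate 1 at 2 h Cct2 lost its call as well, leaving 2. Between 2 h and 7 h of KCl, 7 of 8 fell, where 33.7% of genes did, from -0.14 for Cct8 to -0.64 for Cct6a. The exception was Cct5. Cct8 was the weakest of these calls (adjusted p 0.041, edgeR, Benjamini-Hochberg) and was lost without replicate 1 at 2 h (-0.12) or replicate 2 at 7 h (-0.09).

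The make-up of the pool shows the same divergence on a scale that needs no normalization between libraries. Each subunit's share is its TPM divided by the summed TPM of the 8 in a library. Cct4 held 7.90% and 7.54% in the H2O2/KCl control, 10.03% and 10.24% after H2O2 for 7 h and 6.18% and 6.14% after KCl for 7 h. Cct5 held 14.9% and 14.7% in the control, 14.9% and 14.8% after H2O2 for 7 h and 18.9% and 19.7% after KCl for 7 h, where it took the place of Cct2 as the most abundant.

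Cct6a went from 11.5% and 11.7% to 8.82% and 8.51% at 7 h of KCl, and Tcp1 from 13.7% and 14.1% to 10.96% and 10.93% at 7 h of H2O2. None of these pairs overlapped its control. At 42 °C, where the levels rose together, the mean share that differed most from the control was that of Cct6a (10.9% and 12.3%). The ratio of the most to the least abundant subunit was 2.11 and 2.20 in the H2O2/KCl control and 3.06 and 3.21 at 7 h of KCl. No p was computed for a difference between subunits within a treatment.

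**Figure D3:**
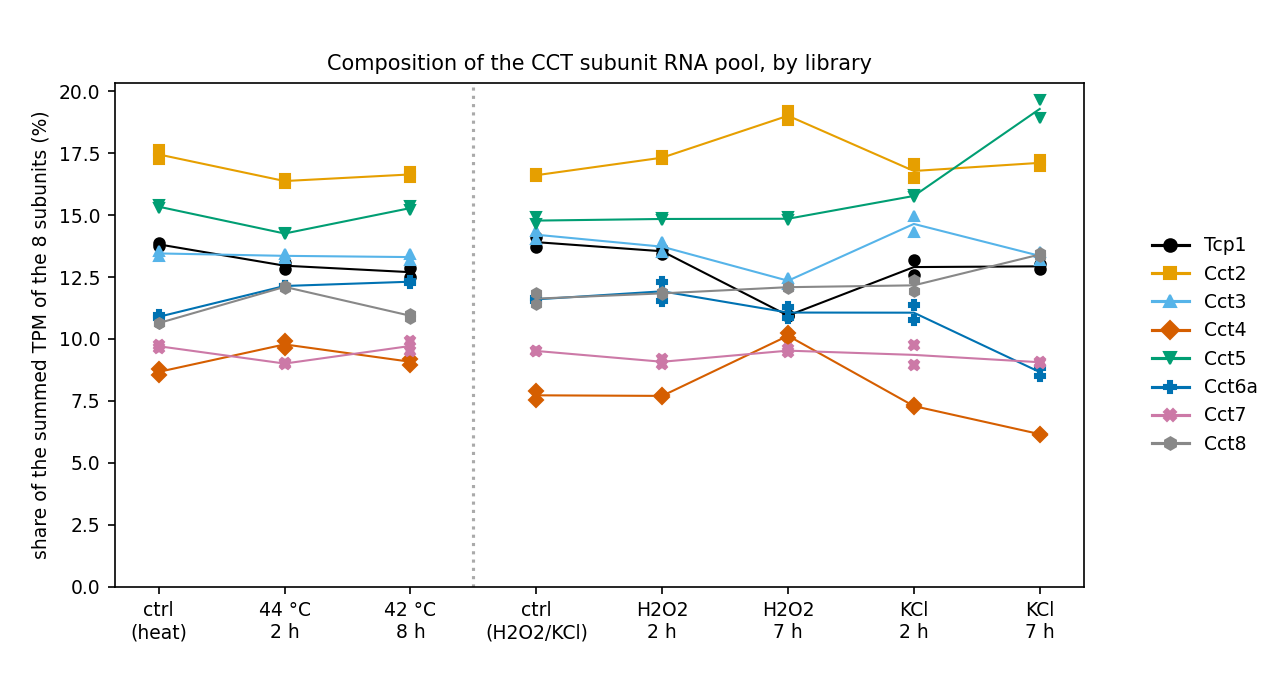
Share of each subunit in the summed TPM of the 8 subunits (y axis, percent, from 0) in the 8 RNA groups (x axis). Points are libraries, lines join group means to guide the eye, and the dotted line separates the experiments. At 7 h of KCl Cct5 stands at 18.9% and 19.7%, above Cct2, while Cct4 stands at 6.18% and 6.14%.

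Across the 16 RNA libraries the 8 subunits followed each other to different degrees. Likeness was the Pearson correlation of log2 CPM relative to the control libraries of the same experiment, over points that share controls, libraries and treatments, and it is given as a description. Of the 28 pairs, r ran from 0.34 (Cct4 with Cct5) to 0.93 (Tcp1 with Cct3), with a median of 0.76. Against the mean of the other 7, Cct7 followed most closely (r = 0.96), then Cct3 (0.91), Cct6a (0.90), Cct8 (0.87), Cct2 (0.86), Cct4 (0.82) and Tcp1 (0.78), and Cct5 least (0.56). These r were ranked among those of genes outside the complex with the mean of all 8. Cct7 would rank 2, Cct3 18, Cct6a 24, Cct8 46, Cct2 50, Cct4 106, Tcp1 181 and Cct5 1149. The ranks are out of 12452 genes, so that all subunits but Cct5 stood near the top. Some genes outside the complex followed the mean of all 8 more closely than a subunit followed the other 7. These r are not like for like, since the means differ.

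Among 12452 genes, the 5 outside the complex most like the mean of the 8 subunits were Pabpc4, a cytoplasmic polyA-binding protein (r = 0.97), Cycs, cytochrome c (0.95), U2af1, a splicing factor that recognises the 3′ splice site (0.95), Ppa1, a cytosolic inorganic pyrophosphatase (0.95), and Pus7, a pseudouridine synthase (0.95). Pabpc4 changed by 0.78 after 42 °C, by 0.47 after H2O2 for 7 h and by -0.21 after KCl for 7 h on the log2 scale, each passing the edgeR threshold.

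Footprints measured the ribosomes on these mRNAs in the H2O2/KCl experiment. In control cells the footprint levels of the 8 genes were closer to each other than their RNA levels, from 428 TPM for Cct8 and 444 TPM for Cct4 to 571 TPM for Tcp1, a ratio of highest to lowest of 1.38 and 1.48 in the 2 libraries against 2.11 and 2.20 in RNA. Footprints per RNA, the ratio of the 2 TPM values and a measure of translational efficiency, were highest for the scarcest RNAs, Cct4 at 1.46 and 1.72 and Cct7 at 1.49 and 1.60, although the ratio shares the RNA value with that ranking. The most abundant RNA, Cct2, had the lowest ratio in control replicate 1, at 0.893, and 0.966 in replicate 2, where Cct8 was lower at 0.915. All 8 were above the median of all genes, 0.653 and 0.606, at the 67.6th to 91.7th percentile.

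Under stress, few of the footprint changes passed the edgeR threshold. The standard error of a footprint fold change was 0.17 to 0.24 on the log2 scale, against 0.055 to 0.069 for RNA in the same experiment, so that changes of the size seen in RNA were mostly not detectable. At 2 h of H2O2 (1.91% of 10545 genes called), 2 h of KCl (6.86%) and 7 h of KCl (20.4%), 0 of 8 subunits passed the edgeR test. None had an unadjusted p under 0.05 in any of the 3, and DESeq2 and limma on log2(TPM + 1) called none.

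At 7 h of H2O2 all 8 footprint fold changes were below 0, with a median of -0.19 against 0.01 for all genes, and 1 of 8 passed as lower, where 10.6% of genes did. This was Tcp1, with 922 and 919 CPM of footprints in the control and 511 and 638 CPM at 7 h of H2O2. The groups did not overlap. Its log2 fold change was -0.68 (SE 0.21, adjusted p 0.029, edgeR, Benjamini-Hochberg), and the call was lost without H2O2 replicate 1 (-0.58), without control replicate 1 (-0.72) or 2 (-0.69) and on log2(TPM + 1) (-0.60). The other 7 lay between -0.34 (Cct3) and -0.12, none with an unadjusted p under 0.05. On log2(TPM + 1) all 8 were below 0 as well, while the median of all genes shifted to 0.11.

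**Figure D4:**
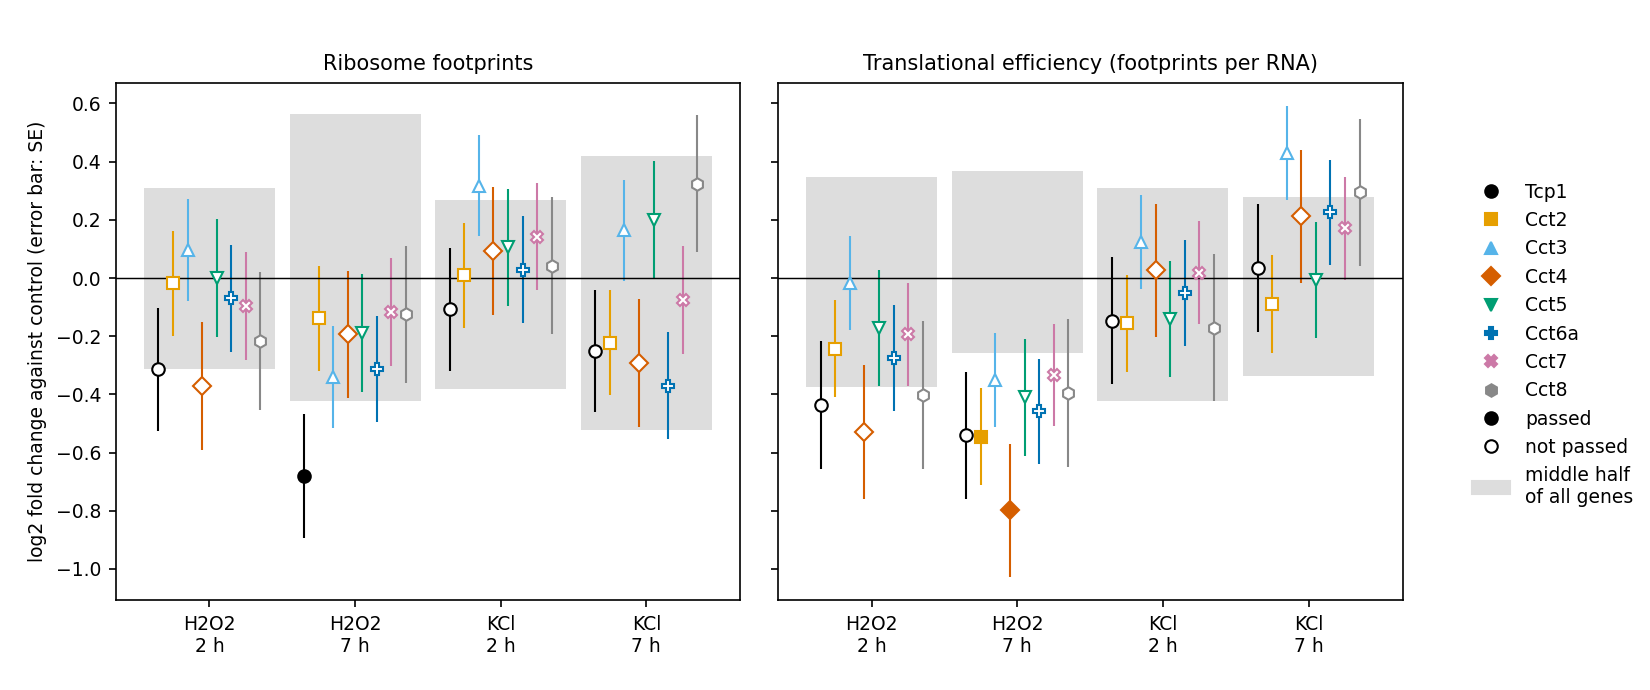
Log2 fold change (y axis) of footprints (left) and of translational efficiency, footprints per RNA (right), for each subunit in 4 stress groups (x axis) against the shared control, with standard errors, for groups of 2 libraries. Filled symbols passed the edgeR threshold and grey boxes span the quartiles of all genes. At 7 h of H2O2 the 8 efficiencies lie between -0.80 and -0.33.

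The RNA and footprint changes of Cct4 at 7 h of H2O2 did not run in parallel. Its RNA rose 1.52-fold, while footprints measured 674 and 785 CPM in the control and 577 and 699 CPM under H2O2, overlapping groups with a log2 fold change of -0.19 (SE 0.22). Translational efficiency, tested as the interaction of library type and treatment in 1 edgeR model over 20 libraries, changed by -0.80 (SE 0.23, adjusted p 0.036, Benjamini-Hochberg) for Cct4 and by -0.55 (SE 0.17, adjusted p 0.049) for Cct2. In footprints per RNA, Cct4 went from 1.46 and 1.72 to 0.993 and 1.09 and Cct2 from 0.893 and 0.966 to 0.719 and 0.736.

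These were 2 of 8 subunits called lower at 7 h of H2O2, where 4.57% of 10480 genes were, and 5 had an unadjusted p under 0.05. All 8 values lay below 0, with a median of -0.43 against 0.06 for all genes, and they stayed below 0 under every alternative run. The calls did not: without either RNA library of the 7 h H2O2 group, either RNA control library, replicate 1 of the 7 h H2O2 footprints or footprint control replicate 2, none of the 8 passed. With replicate 2 of the 7 h H2O2 footprints left out Cct4 alone passed, and without footprint control replicate 1 both did.

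At 2 h of H2O2 the 8 efficiencies were also below 0, with a median of -0.26, and 0 of 8 passed (11.4% of genes did), 1 with an unadjusted p under 0.05. Without footprint replicate 2, which left the shallow replicate 1, Cct8 (-0.83) and Tcp1 (-0.69) passed. Footprints of Cct8 in these replicates were 463 and 761 CPM, the widest gap of any subunit in that group. In KCl 0 of 8 efficiencies passed at 2 h (12.8% of genes did) or at 7 h (5.57%), with 0 and 1 at an unadjusted p under 0.05 and none called by limma voom with a weight per kind of library. Footprints of Cct6a (-0.37) and Cct4 (-0.29) had the lowest values at 7 h of KCl and those of Cct8 (0.32) and Cct5 (0.20) the highest among the 8, none passing. Relative to the pool, Cct6a held 13.1% and 12.8% of the summed footprint TPM in the control and 10.2% and 10.5% at 7 h of KCl, and Cct5 12.7% and 13.5% against 15.8% and 15.5%. The groups did not overlap for either gene, nor for any other subunit except Cct7. The mean footprint share also rose for Cct8, from 10.3% to 13.2%, and for Cct3, from 13.3% to 15.5%, although the RNA of Cct3 fell. It was lower at 7 h of KCl for Tcp1, Cct2 and Cct4 as well.

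The partners and substrates of CCT were compared with the subunits in RNA, as lists chosen with earlier results of these data known. Of all genes tested, 35.4% rose and 35.7% fell at 44 °C, 31.7% and 31.9% at 42 °C, 39.4% and 31.1% in H2O2 at 7 h, and 37.2% and 31.6% in KCl at 7 h, and the lists' counts are to be read against these shares. Of 9 prefoldin and phosducin-like genes, 5 fell and 0 rose at 44 °C, led by the prefoldin subunit Pfdn4 at -0.53, with a list median of -0.23. At 42 °C 5 rose, Pfdn4 most at 0.55, and 1, Pdcl, fell by 0.28, with a median of 0.16. At 7 h of H2O2 4 rose and 2 fell, and at 7 h of KCl 4 rose and 3 fell, Txndc9 being highest in both (0.48 and 0.47), so that the list's shares at 7 h were near those of all genes. Vbp1, the prefoldin subunit 3, was lowest in H2O2 (-0.40), and Pfdn6 was lowest in KCl (-0.56).

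Among the substrates, of 14 actin and tubulin genes, 11 fell and 2 rose at 44 °C, where Actg1, cytoplasmic gamma-actin, was lowest at -1.97 and the list median was -0.55. At 42 °C 4 rose and 6 fell (median -0.03), near the shares of all genes, with Actg1 highest at 0.40 and the beta-tubulin Tubb3 lowest at -0.80. At 7 h of H2O2 10 fell and 4 rose (median -0.74), from Tuba1a at -1.74 to Tubb3 at 1.22, and at 7 h of KCl 6 fell and 4 rose (median 0.03), with Tubb3 lowest at -2.09. Reads of actin and tubulin genes can be divided uncertainly between their close copies. Of 5 tubulin cofactors, which act after CCT in making tubulin dimers, 4 fell and 1 rose at 44 °C. At 42 °C 1 rose and 2 fell, and at 7 h of H2O2 2 rose and 2 fell. At 7 h of KCl 4 fell and 0 rose, Tbcb being lowest at -0.85. Of 6 genes for beta-propeller proteins, 5 fell at 44 °C and 4 at 7 h of H2O2, with 0 higher in both. Gnb4 was lowest at 44 °C (-0.68). Fzr1, an activator of the anaphase-promoting complex, was lowest at 7 h of H2O2 (-1.28). At 42 °C 2 rose and 1 fell. At 7 h of KCl 2 rose and 3 fell, from Gnb4 at -1.56 to Mlst8 at 0.78.

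The chaperones controlled by HSF1 were examined beside the subunits. All 10 of the cytosolic list rose at 44 °C (median 1.64) and at 42 °C (median 2.16), from 0.50 for Hspa8 to 5.21 for the small heat shock protein Hspb1 at 44 °C. The 8 subunits had medians of 0.006 and 0.50 there. After KCl for 7 h 9 of 10 of these chaperones rose (median 0.64), Hspa4l most at 3.16, while 5 of 8 CCT subunits fell. After H2O2 for 7 h 3 rose and 5 fell. Of 6 chaperonin genes outside the complex, 5 were tested in heat. At 44 °C 5 rose and 0 fell, and at 42 °C 2 rose and 2 fell, Bbs10 being lowest at -1.26. At 7 h of H2O2 3 rose and 2 fell, from Bbs10 at -0.33 to Hspd1 at 0.61. At 7 h of KCl 2 rose and 3 fell, from Bbs12 at -0.51 to Bbs10 at 0.92. Among them, Hspd1 and Hspe1, the mitochondrial chaperonin and its lid, rose at 44 °C by 1.44 and 2.04 and at 42 °C by 1.40 and 1.46. Both fell at 7 h of KCl, by 0.22 and 0.39. The lists' members were called by the edgeR test over all genes.

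The study's title concerns transcription that runs past the end of a gene into its neighbour. In the authors' deposited calls for 6399 pairs of neighbouring genes, a downstream-of-gene transcript (DoG) or a read-in into the downstream gene is marked as present or absent in each RNA library. As the downstream gene, 3 subunits were listed, and 2 of 48 read-in calls were positive, both for Frs2 into Cct2 at 2 h of KCl. The share of positive calls over all pairs was not computed. The counts of DoG and read-in calls given here and below thus have no background to be read against. The authors' read-in estimate, a ratio whose formula no source at hand states, was 0.0105 and 0.0100 there and at most 0.000299 in the other 14 libraries. Cct2 RNA itself changed by 0.15 at that time. Mef2d to Cct3 and Smyd5 to Cct7 had no read-in call.

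As the upstream gene, 7 subunits were listed. Cct6a to Sumf2 had read-in estimates of 0.274 and 0.339 after H2O2 for 2 h and 0.191 and 0.198 after KCl for 2 h, against 0.0171 and 0.0229 in the control, but a positive read-in call in only 1 library of each of these stress groups and in 1 at 42 °C. Cct4 to Fam161a had a DoG call in 11 of 16 libraries and read-in calls in 1 library of the heat control and 1 at 44 °C. Its estimates were 1.835 and 1.405 in the heat control, against 1.956 and 3.464 (44 °C) or 8.34 and 5.114 (42 °C), with no overlap of either heat group with the control. In the H2O2/KCl control they were 7.298 and 4.659, above the 2.518 and 1.937 of KCl for 7 h and overlapping the other 3 stress groups. The pairs led by Tcp1, Cct2, Cct3, Cct5 and Cct7 together had 1 read-in call, for Cct3 into Glmp at 2 h of KCl.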

How the data were processed

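The authors deposited expected counts per gene (RSEM) and TPM values for RNA and footprint libraries; STAR, RSEM, Bowtie and the build mm10 are named in the submitters' processing notes, without roles or versions. The deposited read-in estimates are scores per gene pair and library, with true or false calls beside them. Names of 12 further columns fitted no labelled sample, and these columns were set aside.

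The count test was edgeR's quasi-likelihood test (version 4.0.16, R 4.3.3) after TMM normalization and filterByExpr, with p adjusted by Benjamini-Hochberg over every tested gene (12747 in heat RNA, 13256 in H2O2/KCl RNA, 10545 in footprints, 10480 in translational efficiency), at 0.05. Groups of an experiment shared the estimate of spread. Each fit was run on simulated counts drawn from its own estimates, with known changes in a small part of the genes. Such counts cannot show how a fit performs where as many genes change as here. Standard errors are from the fit. Alternatives used DESeq2 1.42.0, limma 3.58.1 on log2(TPM + 1), with a pseudocount of 1, other size factors, no filter, a replicate block, only the groups compared, and leaving out each library. The members and lists were chosen with earlier results of these data known. Named were the 8 subunits, highest or lowest called genes of the lists, Hspd1 and Hspe1 as the mitochondrial chaperonin, and the 5 genes most like the mean of the subunits. Promoters are from RefSeq (GRCm38.p6). The standard errors reflect the spread between these libraries as the fit estimates it, which may be technical.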

Additional observations from a re-analysis of the deposited data

Results flagged for a closer look

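In 4 direct comparisons between stress groups some or all of the 8 subunits differed (edgeR, Benjamini-Hochberg, 0.05), in comparisons in which many other genes differed too. Between the heat groups 8 subunits differed, each higher at 42 °C for 8 h than at 44 °C for 2 h, as were 37.9% of all genes. Between 7 h and 2 h of H2O2, 4 differed, with Cct2, Cct4 and Cct7 higher and Tcp1 lower at 7 h, where 37.3% of all genes were higher and 36.1% lower. Between 7 h and 2 h of KCl, 7 differed, each lower at 7 h, as were 33.7% of all genes, and Cct5 did not pass. Between H2O2 and KCl at 7 h, 6 differed, each higher in H2O2, as were 41.0% of all genes, and Cct5 and Tcp1 did not pass.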

How the results depend on the processing

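No subunit called in any of the 19 comparisons changed direction under an alternative. Of 566 values of called subunits 509 kept their call. Of 1616 values in all, 70 changed sign, each of a subunit called under no setting, with a size of at most 0.21. Counts of called subunits moved by more than 1.5 times as follows. In RNA at 2 h of H2O2 (2 called) no filter gave 1 and DESeq2 gave 4. In RNA at 2 h of KCl (4 called) fitting only the groups compared gave 2 and limma on log2(TPM + 1) gave 1. Between H2O2 and KCl at 2 h (0 called) limma on log2(TPM + 1) gave 3. In footprints at 7 h of H2O2 (1 called) limma on log2(TPM + 1) gave 0. In translational efficiency at 7 h of H2O2 (2 called) DESeq2 size factors and no filter each gave 1. The cause was not tested.

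Leaving out 1 library gave 3 to 3 at 44 °C, 8 to 8 at 42 °C and between the heat groups, 0 to 1 after 2 h and 4 to 5 after 7 h of H2O2, 2 to 3 at 2 h and 5 to 6 at 7 h of KCl, 2 to 3 between times of H2O2, 6 to 7 between times of KCl, 0 between H2O2 and KCl at 2 h and 5 to 7 at 7 h. In footprints it gave 0 to 1 at 7 h of H2O2 and 0 to 0 in the other 3 comparisons. In translational efficiency it gave 0 to 2 after both 2 h and 7 h of H2O2 and 0 to 0 in KCl.

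In RNA, same-numbered replicates were not shown to be paired. The difference between replicates correlated across groups with r of 0.017 to 0.110 in heat and -0.100 to 0.107 in H2O2/KCl. In footprints r ran from -0.376 to 0.411 and was over 0.1 in 6 of 10 pairs of groups. Pairs with 2 h of H2O2 had r of -0.376 to -0.048, and pairs of the other groups 0.195 to 0.411. Pairing of footprint replicates was not tested further, and a block by replicate number covers only same-numbered pairs. With a replicate block the count at 2 h of H2O2 in RNA was 3 in place of 2, and the counts of the other 18 comparisons, such as 8 at 42 °C, 5 for H2O2 and 6 for KCl at 7 h and 2 in translational efficiency at 7 h of H2O2, did not move. Footprint depth limits what could be detected, with standard errors of up to 0.24 on the log2 scale.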
